A study of Mus musculus with 6 samples.

Results

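Oxidative phosphorylation was described through 107 of the 54532 rows of a gene count table from 6 RNA-seq libraries of mouse T cells. The members were the protein-coding rows whose symbols begin with Nduf, Uqcr, Cox4i, Cox5, Cox6, Cox7, Cox8, Atp5 or mt-, together with Sdha, Sdhb, Sdhc and Sdhd. Of these, 94 lie in nuclear DNA and 13 on the mitochondrial genome, and both sets were analysed apart. The rule itself reads symbols and biotype and no measured value, but it was set with earlier results of these data known.

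Oxidative phosphorylation takes place in the inner mitochondrial membrane, where complexes I to IV pass electrons from nutrients to oxygen and pump protons, and ATP synthase uses the proton gradient to make ATP. Complexes I, III, IV and ATP synthase are assembled from proteins encoded in both genomes, whereas complex II is built from nuclear genes alone. The mitochondrial genes are transcribed as long precursors that are processed into single RNAs, while each nuclear subunit has its own gene and promoter. Activated T cells grow and divide, and they use both glycolysis and respiration while doing so.

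All 6 libraries came from primary T cells. In the study's methods these are CD8T cells from mouse spleen, stimulated through CD3 and CD28 with antibody-coated beads. They then shared a culture for 24 hr with an equal number of peritoneal macrophages given 10 ng/mL IFN-γ for 12 hr. In 3 of the libraries (CONT1 to CONT3, the control group) the cocultured cells carried no drug. In the other 3 (DB2313T1 to DB2313T3, the DB2313 group) those cells had received DB2313, which blocks the transcription factor Spi1 (PU.1) and was used at 14 nM in the study. The GEO labels call the cocultured cells DC cells, the methods call them macrophages, and one treatment note naming DB2313 is shared by all 6 libraries, so the groups rest on the treatment tag and the sample description. Mouse strain, age and genotype were not given for these cultures. Nothing states that the 3 libraries of a group came from separate cultures, so p-values measure the spread between libraries, which may be technical.

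Library totals ran from 16611975 to 18596217 counts. T cell markers were higher in the DB2313 group for 20 of 20 genes, and their summed share of counts rose from 0.324% to 0.526%. Macrophage markers were lower for 21 of 25 and higher for 3, with a share of 1.61% in the controls and 0.706% in the DB2313 group. Neutrophil markers were lower for 9 of 10 and higher for 1, and dendritic cell markers lower for 7 of 9 and higher for 1. B cell markers were higher for 7 of 10 and lower for 1, and erythroid and platelet markers higher for 4 of 7 and lower for 0 (0 also at an unadjusted p of 0.05 with edgeR, and 0 with DESeq2). Over all 14883 genes tested, 20.8% were called higher and 24.6% lower in the DB2313 group. In these bulk libraries fewer cells of a type and less RNA per cell cannot be told apart, and the part of this difference in any result below was not tested.

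Counts on some mitochondrial genes depend on where a read can be placed, because the mouse nuclear genome carries copies of mitochondrial DNA. A copy at least 99% identical over at least 95% of the gene was annotated for 5 of the 13 mitochondrial genes (mt-Co2, mt-Co3, mt-Atp6, mt-Nd3 and mt-Nd4l). All 5 copies lie in one block on chromosome 1, and mt-Co1 (31.3% of its length) and mt-Nd4 (63.6%) have such a copy in part. Only annotated transcripts were searched. On the mitochondrial genome mt-Atp8 lies between mt-Co2 and mt-Atp6, so an unannotated copy of it between theirs would have been missed. The first 60 bases of mt-Co2 and mt-Nd3 are shown with their chromosome 1 copies, and bases 44 to 103 of mt-Co1 with its whole-length copy on chromosome 2, because these stretches show where a read can and cannot be told apart. Sequences are from the GENCODE transcripts on GRCm38 and run 5′ to 3′ along the gene, and capitals mark the bases at which gene and copy differ.
mt-Co2: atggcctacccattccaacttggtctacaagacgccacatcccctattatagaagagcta
Gm28661: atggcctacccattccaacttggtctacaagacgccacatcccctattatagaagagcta
mt-Nd3: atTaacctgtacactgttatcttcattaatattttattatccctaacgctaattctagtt
Gm28438: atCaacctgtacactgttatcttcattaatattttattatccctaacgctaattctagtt
mt-Co1: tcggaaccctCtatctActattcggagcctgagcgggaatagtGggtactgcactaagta
Gm13340: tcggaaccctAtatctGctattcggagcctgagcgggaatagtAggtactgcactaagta

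mt-Co2 and Gm28661 (chr1:24614885-24615565) were identical over all 681 aligned bases, so no read inside them has a unique place. mt-Nd3 and Gm28438 differed at 1 of 345 bases, T3C with the mitochondrial base first and positions counted from 1 at the start of the gene. mt-Co1 and Gm13340 differed at 37 of 1545 bases, and C54A, A60G and G87A fall in the stretch shown. How reads with several placements were counted was not given in the sources used here.

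The deposited counts differed between these kinds of gene. Levels are compared between genes as CPM per kilobase, that is counts scaled to library size with the trimmed mean of M values (TMM) and divided by the length of the principal transcript. The 5 whole-length copied genes had 6.57 to 73.5 CPM per kilobase in the controls, against 690 for mt-Nd4 and 5318 for mt-Co1. Of the other 6, mt-Atp8 was at 1.72, and the highest, mt-Nd1, was at 1626. The copied genes together with mt-Atp8 therefore rest on few counts, and their values are given apart from those of mt-Co1, mt-Cytb, mt-Nd1, mt-Nd2, mt-Nd4, mt-Nd5 and mt-Nd6.

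**Figure D1:**
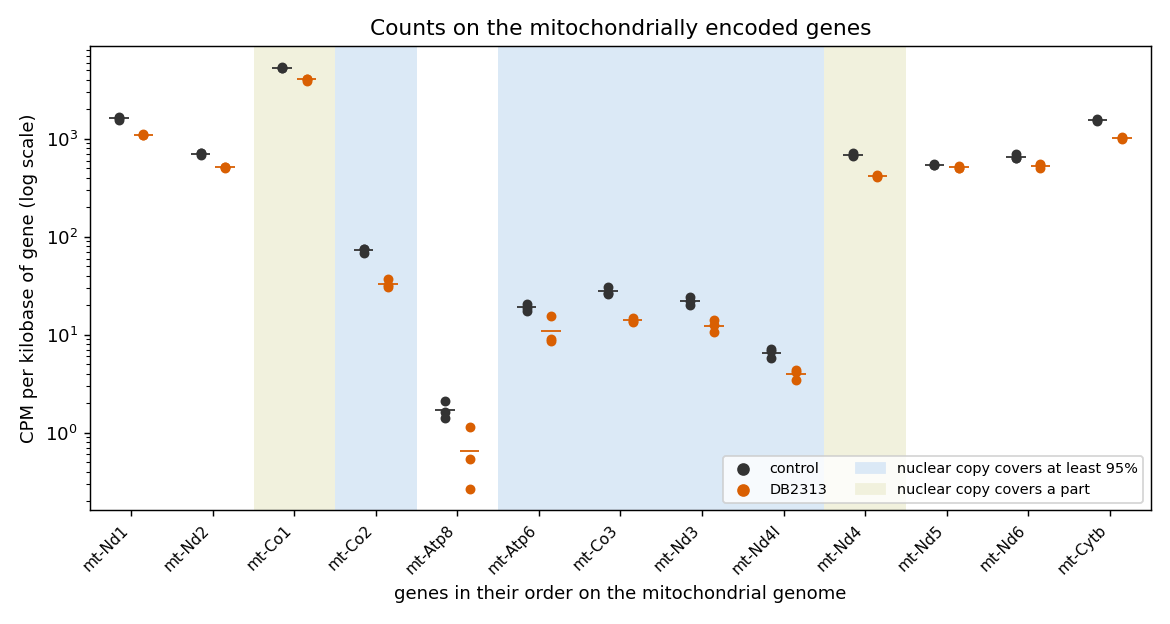
Level of each mitochondrially encoded gene, in CPM per kilobase on a log scale, with genes in their order on the mitochondrial genome, 1 point per library and a short line at each group mean. Shading marks genes with an annotated near-identical nuclear copy. The control means of the genes with a whole-length copy sit at 6.57 to 73.5 CPM per kilobase, and the DB2313 points lie below the control points for every gene shown, narrowly for mt-Nd5.

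Mitochondrially encoded transcripts were lower in the DB2313 group. They took 1.40%, 1.43% and 1.42% of all counts in the controls and 1.09%, 1.12% and 1.14% in the DB2313 group, so the groups did not overlap. The mean share went from 1.42% ± 0.0138 to 1.12% ± 0.0232 (SD, n = 3), a ratio of 0.790. Nuclear members took 0.982% ± 0.0240 of counts in the controls and 0.971% ± 0.0308 in the DB2313 group (SD, n = 3), and these groups overlapped. The ratio of mitochondrial to nuclear member counts within a library, which does not depend on scaling, was 1.46, 1.46 and 1.41 in the controls and 1.10, 1.14 and 1.22 in the DB2313 group. An exact permutation test of 3 against 3 libraries cannot go below a two-sided p of 0.10, so these shares are given without a test.

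Of the 12 mitochondrial genes tested, 10 were lower at an adjusted p under 0.05 and 0 were higher. With no adjustment all 12 passed a p of 0.05 and 0 were higher, and DESeq2 called 11 lower and 0 higher. The test was the quasi-likelihood test of edgeR, with p-values adjusted (Benjamini-Hochberg) over all 14883 genes tested, of which 20.8% were called higher and 24.6% lower in the DB2313 group. The median log2 fold change of the 12 was −0.66, against 0.019 over all genes tested. The other 2 were mt-Nd5 and mt-Nd4l, both with values below zero. mt-Atp8 held 6, 5 and 7 counts in the controls and 1, 4 and 2 in the DB2313 group, which was too few to test.

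The well-counted genes fell by different amounts. mt-Nd4, a proton-pumping subunit of complex I, had 16736, 16198 and 16052 counts in the controls and 10306, 9971 and 10681 in the DB2313 group. Its log2 fold change was −0.73 (SE 0.033, adjusted p = 7.47e-15). mt-Cytb, the cytochrome b of complex III, had 31876, 30028 and 29903 counts in the controls against 21528, 20243 and 21168, a log2 fold change of −0.61 (SE 0.030, adjusted p = 3.48e-14). Every DB2313 library was below every control for both genes.

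mt-Nd1 and mt-Nd2, also membrane subunits of complex I, changed by −0.57 and −0.47 on the log2 scale (adjusted p = 3.38e-13 and 1.83e-11). mt-Co1, the catalytic subunit of complex IV, held 56.0% of all mitochondrial counts in the controls and 57.7% in the DB2313 group. It had 146924, 143625 and 133436 counts in the controls and 112298, 107796 and 117278 in the DB2313 group. Its log2 fold change was −0.39 (SE 0.027, adjusted p = 1.43e-11). mt-Nd6, the only member read from the opposite strand, changed by −0.31 (SE 0.039, adjusted p = 7.67e-07).

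mt-Nd5, the largest membrane subunit of complex I, stood apart from its neighbours. It had 17727, 17189 and 16183 counts in the controls and 17030, 15850 and 17915 in the DB2313 group, a log2 fold change of −0.073 (95% interval −0.14 to −0.0088) with an adjusted p of 0.0589, and DESeq2 gave an adjusted p of 0.0391. Without DB2313 replicate 3 the adjusted p was 0.0136, and with library totals as scaling the value was 0.022, above zero. Its share of the mitochondrial counts was 6.75% ± 0.0446 in the controls and 8.68% ± 0.190 in the DB2313 group (SD, n = 3), whereas that of the adjacent mt-Nd4 was 6.48% ± 0.153 and 5.29% ± 0.0410. The count ratio of mt-Nd4 to mt-Nd5 was 0.944, 0.942 and 0.992 in the controls and 0.605, 0.629 and 0.596 in the DB2313 group. The pair was chosen after the values were seen, so the ratio has no test. An identical chromosome 1 copy, Gm28439, covers 63.6% of mt-Nd4, whereas no near-identical copy of mt-Nd5 was annotated. Gm28439 held 88, 65 and 83 counts in the controls and 49, 50 and 48 in the DB2313 group. The part of shared sequence in the ratio was not tested. mt-Nd5 overlaps mt-Nd6 on the other strand by a few bases, and whether the counting used strand was not given.

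The genes with whole-length copies had log2 fold changes of −1.14 to −0.72, on far fewer counts. mt-Co2 had 850, 891 and 849 counts in the controls and 465, 358 and 408 in the DB2313 group, a log2 fold change of −1.14 (SE 0.075, adjusted p = 8.44e-12). Its copy Gm28661 had 829, 867 and 818 counts in the controls and 364, 335 and 249 in the DB2313 group. mt-Co2 and its identical copy thus carried similar counts, and in both the DB2313 libraries were below every control. mt-Co3 changed by −0.99, mt-Nd3 by −0.84 and mt-Atp6 by −0.80, all called lower, and mt-Nd4l by −0.72 (adjusted p = 0.0622). The 5 genes together took 0.617% to 0.674% of the mitochondrial counts in the controls and 0.403% to 0.450% in the DB2313 group, and the remainder lay on the other 8.

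Nuclear members moved in both directions. Of the 94, 3 had no counts (Ndufa4l2, Cox8c and a second Atp5o row), 89 passed the filter on low counts, and 11 of these were higher, 31 lower and 47 not called. The shares called were 12.4% higher and 34.8% lower, beside 20.8% and 24.6% over all genes tested, and the median log2 fold change was −0.064. With a log2 fold change over 1 asked as well, 1.37% of all genes were called higher and 5.3% lower, and the members called were Cox4i2 and Cox6a2 (higher), Atp5k and Cox7a1 (lower) and mt-Co2 (lower).

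The split between higher and lower depended on the scaling. With library totals in place of TMM it was 21 higher and 22 lower, with upper quartile scaling 15 and 26, and scaled to the T cell markers 1 and 86. The T cell scaling lowered the median of all genes by 0.60 on the log2 scale, and Cox4i2 was the member called higher in it. A change of scaling shifts the members by about the same amount, so it bears on their calls against zero more than on the differences between them. Directions below are with TMM, and scaled to the T cell markers every tested member of complexes I, II, III and ATP synthase was called lower.

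**Figure D2:**
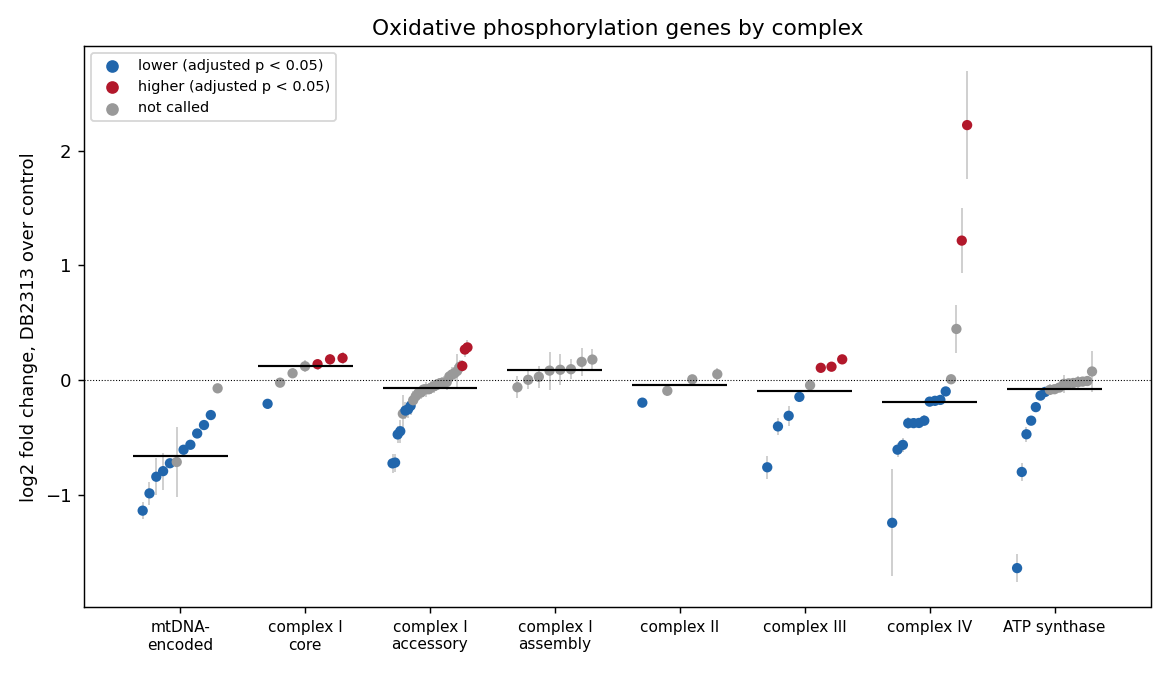
Log2 fold change of each tested member, DB2313 over control, by complex. Points are genes ordered by value within a complex, grey bars are 1 standard error, black lines are medians, and colours mark genes called lower, higher or not called at an adjusted p under 0.05. All 12 mitochondrial genes lie below zero (mt-Nd5 would lie at 0.022 with library totals), while complexes I, III and IV hold called genes on both sides.

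Complex III was divided by the kind of subunit. Uqcrc1 and Uqcrc2, the large core proteins on the matrix side, and Uqcrfs1, the Rieske iron-sulfur protein that carries electrons, were all called higher. Uqcrc2 had 2537, 2285 and 2370 counts in the controls and 2920, 2718 and 2877 in the DB2313 group, a log2 fold change of 0.18 (SE 0.039, adjusted p = 5.51e-04). Uqcrfs1 and Uqcrc1 rose by 0.12 and 0.11 on the log2 scale (adjusted p = 0.0218 and 0.0323), and DESeq2 called neither (adjusted p = 0.0516 and 0.0584). The call of Uqcrc1 was also lost without control replicate 1 or 2 or DB2313 replicate 1 or 2 (adjusted p up to 0.233), and that of Uqcrfs1 without control replicate 1 or 3 or DB2313 replicate 2 (up to 0.136).

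The small subunits Uqcrb, Uqcr10, Uqcr11 and Uqcrh were called lower, and Uqcrq was not called (−0.046). Uqcrb, which binds near the quinone site, had 1110, 1121 and 1010 counts in the controls and 821, 667 and 509 in the DB2313 group, a log2 fold change of −0.76 (SE 0.10, adjusted p = 1.01e-06). The groups did not overlap for Uqcrc2 or Uqcrb, and the ratio of Uqcrb to Uqcrc2 counts within a library was 0.438, 0.491 and 0.426 in the controls and 0.281, 0.245 and 0.177 in the DB2313 group. Uqcr10, Uqcr11 and Uqcrh changed by −0.41, −0.31 and −0.15. Uqcr11 was not called by DESeq2 (adjusted p = 0.0950), and Uqcrh was not called without DB2313 replicate 3 (adjusted p = 0.0687).

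**Figure D3:**
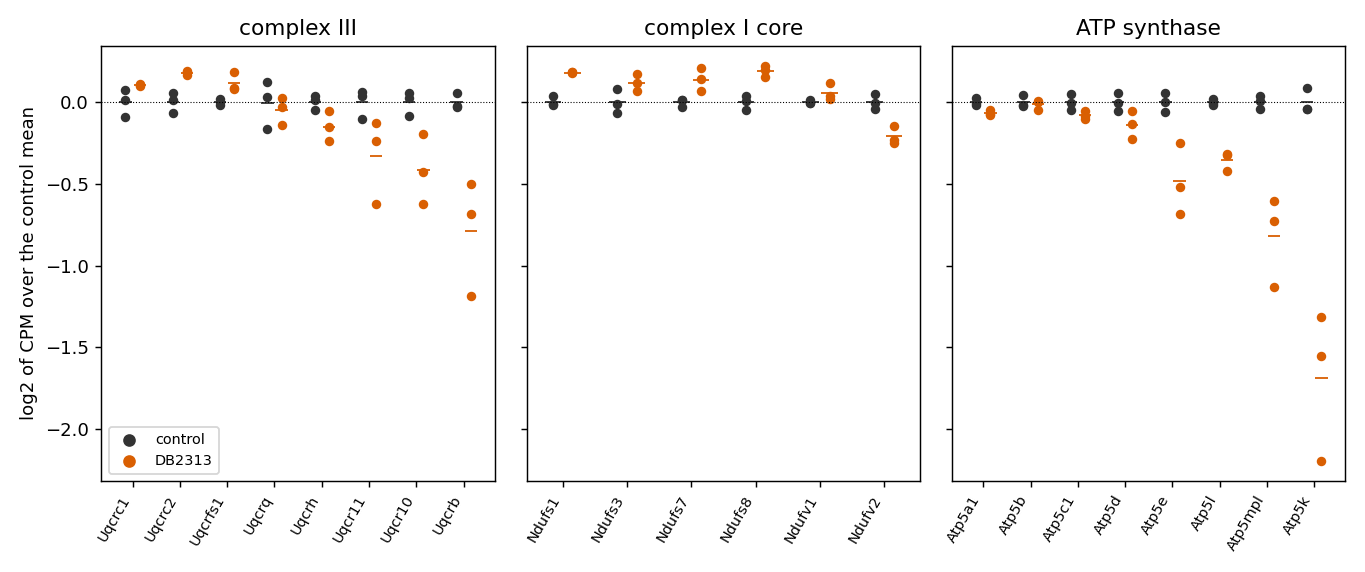
Each library's level relative to the control mean, as log2 of CPM over that mean, for complex III and for selected complex I core and ATP synthase genes. Points are libraries and short lines are group means. In complex III, scaled by TMM, the core proteins Uqcrc1 and Uqcrc2 lie above zero and Uqcrb, Uqcr10 and Uqcr11 below it in all 3 DB2313 libraries, and for Atp5k the DB2313 libraries lie furthest below zero.

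Complex I held calls in both directions. Its 7 nuclear core subunits, which hold the flavin and iron-sulfur clusters, gave 3 called higher and 1 lower with a median of 0.12. These were 42.9% and 14.3%, beside 20.8% and 24.6% over all genes tested. Ndufs8, an iron-sulfur subunit, had 1105, 1094 and 1062 counts in the controls and 1341, 1259 and 1292 in the DB2313 group, a log2 fold change of 0.19 (SE 0.051, adjusted p = 0.00341). Ndufs1 and Ndufs7, both also iron-sulfur subunits, rose by 0.18 and 0.14, the latter without a call when control replicate 2 (adjusted p = 0.0863) or DB2313 replicate 2 (0.115) was left out. Ndufv2, which carries a further cluster, had 1862, 1819 and 1799 counts against 1774, 1527 and 1663 and changed by −0.21 (adjusted p = 4.22e-04).

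The accessory subunits surround that core and are needed for assembly and stability. Of 30 tested, 7 were lower, 3 higher and 20 not called, that is 23.3% lower and 10.0% higher beside 24.6% and 20.8% over all genes tested. Ndufa3 had 1537, 1592 and 1472 counts in the controls and 1203, 897 and 808 in the DB2313 group, a log2 fold change of −0.73 (SE 0.084, adjusted p = 1.43e-07). Ndufa1, a small membrane subunit, changed by −0.72 (adjusted p = 5.48e-08), and the other 5 (Ndufa5, Ndufc1, Ndufs5, Ndufa2 and Ndufs6) by −0.48 to −0.23. Ndufs6 lost its call without control replicate 3 (adjusted p = 0.178) or DB2313 replicate 3 (0.129), and DESeq2 did not call Ndufa2 (0.0885).

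Ndufa4, Ndufa11 and Ndufa9 were the accessory members called higher. Ndufa4, named for complex I but since placed in complex IV, had 1192, 1197 and 1175 counts against 1692, 1472 and 1374, a log2 fold change of 0.28 (SE 0.061, adjusted p = 4.92e-04). Ndufa11 rose by 0.26. Ndufa9 rose by 0.12 (adjusted p = 0.0468), and DESeq2 did not call it (0.0960), nor was it called without control replicate 1 (0.322) or any 1 of the DB2313 libraries (0.0665 to 0.126). None of the 8 assembly factors with an Ndufaf symbol was called, with values from −0.064 (Ndufaf8) to 0.18 (Ndufaf7). The edgeR quasi-likelihood test gave 0 of 8 also at an unadjusted p of 0.05, and DESeq2 called 0. Over all genes tested 20.8% were called higher and 24.6% lower. The result depended on scaling, with 1 of the 8 called higher with library totals and 1 with upper quartile scaling. Scaled to the T cell markers all 8 were called lower.

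Complex II, which also works in the citric acid cycle, gave 1 call among its 4 subunits. That is 25% called lower, near the 24.6% over all genes tested. Sdha, its flavin subunit, had 4778, 4636 and 4252 counts in the controls and 4791, 4553 and 4987 in the DB2313 group, a log2 fold change of 0.0052 (95% interval −0.066 to 0.076). Sdhb and Sdhc gave 0.050 and −0.095, neither called. Sdhd, a membrane anchor, had 2520, 2434 and 2543 counts against 2312, 2174 and 2353 and was called lower at −0.20 (SE 0.042, adjusted p = 4.42e-04).

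Complex IV was the nuclear class with the most members called lower, 11 lower and 2 higher of 15 tested, with a median of −0.19. These were 73.3% and 13.3%, beside 24.6% lower and 20.8% higher over all genes tested. Its share of counts was 0.214% ± 0.00624 in the controls and 0.195% ± 0.00818 in the DB2313 group (SD, n = 3), and the groups did not overlap. Cox7c, a small membrane subunit, had 2133, 2328 and 2332 counts in the controls and 1709, 1536 and 1421 in the DB2313 group, a log2 fold change of −0.61 (SE 0.062, adjusted p = 1.84e-08). Near-identical pseudogenes cover 58.3% of its mRNA, so its count is less certain.

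Cox7b changed by −0.57, and Cox6c, Cox8a, Cox5a and Cox6b1 by −0.38 to −0.36, all called lower, as were Cox5b (−0.18) and Cox7a2 (−0.17). Cox4i1, the common form of a regulatory subunit and the most abundant complex IV member per length, changed by −0.19 (SE 0.040, adjusted p = 4.59e-04). Cox6a1 was called lower at −0.10 (adjusted p = 0.0388) with overlapping groups, and the call was lost with DESeq2 (adjusted p = 0.0560) and without control replicate 2 or 3 or DB2313 replicate 3 (0.0935 to 0.236). Cox7a2l, a factor that joins complexes III and IV in supercomplexes, was not called at 0.0061 (95% interval −0.063 to 0.075).

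The tissue-restricted isoforms of complex IV were at the edge of detection. Cox4i2, a form known from lung and from cells in low oxygen, had 3, 4 and 6 counts in the controls and 20, 19 and 26 in the DB2313 group, a log2 fold change of 2.22 (SE 0.47, adjusted p = 4.10e-04). Cox6a2, the heart and muscle form, had 24, 17 and 22 counts against 55, 57 and 41, a log2 fold change of 1.22 (SE 0.28, adjusted p = 0.00114). In both genes every DB2313 library was above every control. Cox7a1, another muscle form, had 20, 19 and 14 counts against 3, 12 and 8 (−1.25, SE 0.47, adjusted p = 0.0327), and DESeq2 did not call it (adjusted p = 0.0702). Its call was also lost without control replicate 1 or 2 or DB2313 replicate 1 or 3 (0.0679 to 0.165).

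Per length these isoforms were far below the common ones. In the controls Cox4i1 stood at 549 CPM per kilobase and Cox4i2 at 0.348, and in the DB2313 group at 481 and 1.64. Cox6a1 stood at 368 and Cox6a2 at 4.19 in the DB2313 group. Cox6b2, a testis form, was not called at 0.44 (95% interval 0.0029 to 0.89), but was without DB2313 replicate 3 (adjusted p = 0.0328). Cox8b and Cox7b2 were too low to test, with 0, 0 and 9 counts in the controls and 1, 0 and 0 in the DB2313 group for Cox8b.

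ATP synthase gave 7 lower, 0 higher and 10 not called of 17 tested. The 41.2% lower stands beside 24.6% over all genes tested, and the 0 higher beside 20.8%. At an unadjusted p of 0.05 the edgeR test gave 0 higher and 9 lower, and DESeq2 called 0 higher and 6 lower. With library totals as scaling 1 was called higher and 5 lower, and with upper quartile scaling 0 higher and 5 lower. The main catalytic head subunits were not called. Atp5b, the beta subunit, had 17019, 16143 and 16084 counts in the controls and 17627, 16343 and 17009 in the DB2313 group, a log2 fold change of −0.014 (95% interval −0.079 to 0.050). Atp5a1, the alpha subunit, gave −0.067 (adjusted p = 0.0793). The genes called lower encode small parts of the stalk and the membrane sector.

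Atp5k, the e subunit that helps ATP synthase form dimers, was the lowest nuclear member. It had 866, 902 and 785 counts in the controls and 368, 288 and 199 in the DB2313 group, a log2 fold change of −1.64 (SE 0.12, adjusted p = 6.19e-11). Its count as a ratio to Atp5b in the same library was 0.0519 ± 0.00363 in the controls and 0.0167 ± 0.00465 in the DB2313 group (SD, n = 3). Atp5mpl, a membrane-sector protein of very small size, had 1405, 1296 and 1304 counts against 944, 802 and 653 (−0.80, adjusted p = 2.20e-08).

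Atp5e, the epsilon subunit of the central stalk, changed by −0.47 and Atp5l, the g subunit beside Atp5k in the membrane, by −0.36. The 3 genes for the c ring encode the same mature protein, and Atp5g2 was called lower (−0.24), whereas Atp5g1 and Atp5g3 were not (−0.034 and −0.087). Without control replicate 1 or DB2313 replicate 1, Atp5g3 was called lower (adjusted p = 0.0250 and 0.0404). Atp5d and Atp5j completed the 7 at −0.14 and −0.10, and Atp5d lost its call without control or DB2313 replicate 3 (0.0613 and 0.0718). Atp5j lost it with DESeq2 (0.0897) and without control replicate 2 or 3 or DB2313 replicate 2 or 3 (0.0855 to 0.163). Near-identical copies cover 88.2% of the Atp5g2 mRNA and 72.2% of that of Atp5l.

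**Figure D4:**
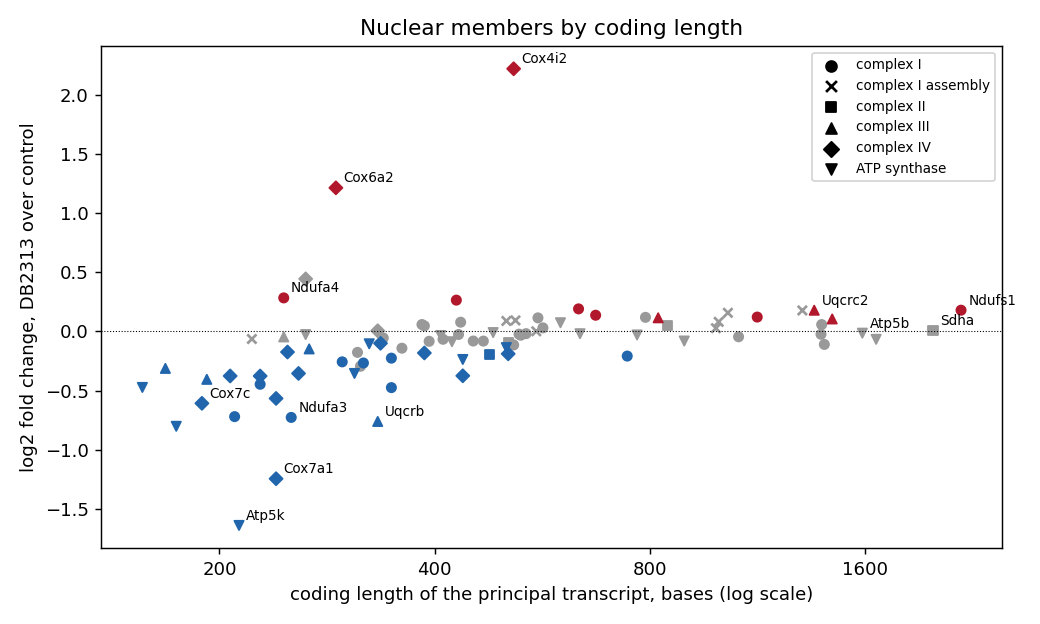
Log2 fold change of the 89 tested nuclear members against the coding length of the principal transcript in bases, on a log scale. Symbols mark the complex, and colours mark genes called lower (blue), higher (red) or not called (grey). The called-lower genes gather at the left, and of the genes with over 600 coding bases 1 is blue and 7 are red.

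Across complexes, the members called lower had short coding sequences. Their median coding length was 267 bases, against 672 for those called higher and 519 for those not called. Of 21 members with up to 270 coding bases 16 were lower and 1 higher (Ndufa4), and of 24 with over 600 coding bases 1 was lower (Ndufv2) and 7 higher. Spearman's rho between log2 fold change and coding length was 0.62 over the 89 members, which share the same 6 libraries. Over 12541 other protein-coding genes it was −0.041. The other genes are mostly longer, with mRNAs over 3000 bases for 6218 of them and up to 600 for 130. Among members these were 5 and 19, so the rho values cover unlike length ranges.

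Length of the mRNA gave a like picture. Among 19 members of up to 600 bases, 15 were lower and 1 higher with a median of −0.36, whereas 130 other coding genes of that length had a median of −0.10 and 36.9% called lower. Cytosolic ribosomal proteins had a median mRNA of 838 bases, so they do not match that length. They were higher for 43 and lower for 16 of 85 (50.6% and 18.8%, beside 20.8% and 24.6% over all genes tested). The median of the 19 relative to the control mean was −0.066, 0.038 and 0.028 in the controls and −0.19, −0.29 and −0.50 in DB2313T1 to DB2313T3, so DB2313T3 was the lowest library. For 39 members over 1000 bases the library medians lay between −0.026 and 0.048. Removing each library's length trend, a setting chosen after the data were seen, gave 37 nuclear members lower and 9 higher. That trend was smoothed over all tested protein-coding genes, few of them this short. It can therefore miss a drop in the shortest mRNAs alone. The part of mRNA length and of RNA quality in the low values was not tested, and 7 of the 10 genes on the RNA quality list were also called lower and 2 higher. That list holds rows of the mitochondrial chromosome. Without such rows 5 were lower and 2 higher of 8, and with protein-coding rows only 3 were lower and 2 higher of 6.

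Promoters are shown for Atp5k and Ndufa3, the lowest ATP synthase and complex I members, and for Ndufs8 and Uqcrc1, called higher, since members of one complex moved in opposite directions. Each runs 5′ to 3′ on the gene's strand from 250 bases before to 50 after the RefSeq start on GRCm38.p6. Capitals mark exact matches, on either strand, to CCGGAAG (bound by Ets factors), AAGATGGC (Yy1) or TGCGCA (a part of the Nrf1 site). Other forms of these sites were not searched and stay in lower case, such as gcgcatgcgc in Atp5k. Nrf1, Yy1 and the Ets protein Gabpa are known regulators of respiratory chain genes.
Atp5k, chr5:108434350-108434649, minus strand: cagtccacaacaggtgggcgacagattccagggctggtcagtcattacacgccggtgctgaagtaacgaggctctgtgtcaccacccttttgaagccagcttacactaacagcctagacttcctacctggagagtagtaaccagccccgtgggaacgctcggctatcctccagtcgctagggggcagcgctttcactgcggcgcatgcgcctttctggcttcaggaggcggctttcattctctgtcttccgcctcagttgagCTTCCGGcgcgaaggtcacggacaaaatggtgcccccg
Ndufa3, chr7:3617123-3617422, plus strand: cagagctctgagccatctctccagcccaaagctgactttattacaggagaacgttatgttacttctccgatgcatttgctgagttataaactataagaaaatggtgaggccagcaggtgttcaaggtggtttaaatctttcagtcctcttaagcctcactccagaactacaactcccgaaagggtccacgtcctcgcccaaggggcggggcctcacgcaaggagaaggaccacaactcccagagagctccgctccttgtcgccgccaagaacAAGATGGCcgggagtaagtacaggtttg
Ndufs8, chr19:3912725-3913024, minus strand: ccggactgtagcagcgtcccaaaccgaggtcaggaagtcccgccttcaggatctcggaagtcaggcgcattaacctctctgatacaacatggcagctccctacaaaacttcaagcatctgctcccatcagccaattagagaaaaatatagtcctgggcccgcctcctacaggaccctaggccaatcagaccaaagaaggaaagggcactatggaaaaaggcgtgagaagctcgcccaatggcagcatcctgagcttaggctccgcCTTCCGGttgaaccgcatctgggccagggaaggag
Uqcrc1, chr9:108936398-108936697, plus strand: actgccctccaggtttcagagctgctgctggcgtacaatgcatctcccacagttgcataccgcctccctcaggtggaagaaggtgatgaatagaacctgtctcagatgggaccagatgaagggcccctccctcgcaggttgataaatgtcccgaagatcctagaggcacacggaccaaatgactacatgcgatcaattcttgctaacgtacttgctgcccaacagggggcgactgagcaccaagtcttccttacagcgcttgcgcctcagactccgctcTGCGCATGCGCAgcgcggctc

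The Ets letters occurred in Atp5k, the lowest member, and in Ndufs8, called higher. RefSeq promoters were matched for 74 of the 94 nuclear members. TGCGCA was found in 24.3% of these and in 15.3% of the 10476 other tested genes with a promoter, and in 8.79% of all 27025 genes in the table. CCGGAAG was found in 24.3% of members, 19.6% of other tested genes and 9.93% of all genes, and AAGATGGC in 13.5%, 5.1% and 3.19%. Any of the motifs occurred in 17 of 26 members called lower, 4 of 7 called higher, 16 of 39 not called and 0 of 2 not tested. The share with any motif was not computed for other genes, by call or in all, so these counts have no base rate. A match describes letters in this window and is no evidence of binding.

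Nuclear genes that serve the mitochondrial genome were more often called higher than lower with TMM. Of 31 genes for mitochondrial DNA maintenance, transcription and RNA processing, 14 were higher and 1 lower (45.2% and 3.23%), with a median of 0.20. Over all genes tested the shares were 20.8% and 24.6%. Scaled to the T cell markers, 0 of the 31 were higher and 27 lower with a median of −0.40. Tfam, which packages mitochondrial DNA and starts its transcription, had 828, 783 and 726 counts in the controls and 1082, 928 and 1137 in the DB2313 group (0.36, SE 0.061, adjusted p = 2.68e-05). Polrmt, the mitochondrial RNA polymerase, rose by 0.26, and Pnpt1, a mitochondrial RNA-degrading enzyme, by 0.43. Slirp, which stabilizes mitochondrial mRNAs together with Lrpprc, was the gene called lower (−0.63), with a mean under 10 CPM in both groups. Its call was lost with DESeq2, with library totals or upper quartile scaling, and without any 1 control library or DB2313 replicate 3. Lrpprc was called higher at 0.14 (adjusted p = 0.0320), a call lost with DESeq2 (adjusted p = 0.0636) and without any 1 library other than control replicate 1 (0.0549 to 0.108). Tfam, Polrmt and Slirp were named after their values were seen.

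Mitochondrial ribosomal proteins, which translate the 13 mitochondrial mRNAs, gave 19 higher and 5 lower of 77, with a median of 0.087. Their 24.7% higher was near the 20.8% over all genes tested, and their 6.49% lower was below the 24.6%. Scaled to the T cell markers 0 were higher and 77 lower. Mrps5 was the highest (0.42) and Mrps21 the lowest (−0.56) of those called. Assembly factors for complex I outside the Ndufaf names gave 5 higher and 0 lower of 9 by edgeR, 6 and 0 at an unadjusted p of 0.05, and 5 and 0 by DESeq2, with Tmem186 at 0.37. Scaled to the T cell markers all 9 were lower. Those for complex IV gave 4 higher and 8 lower of 23 (17.4% and 34.8%), from Pet100 at −0.72 to Cox11, which delivers copper, at 0.88. Assembly factors gave 0 higher and 1 lower of 4 for complex II (Sdhaf2, −0.41) and 2 and 2 of 5 for ATP synthase (Atpaf1 at 0.37 and Tmem70 at −0.50). The other complex III genes gave 1 higher (Cyc1, cytochrome c1, 0.17) and 0 lower of 7, with 2 and 0 at an unadjusted p of 0.05 and 1 and 0 by DESeq2.

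**Figure D5:**
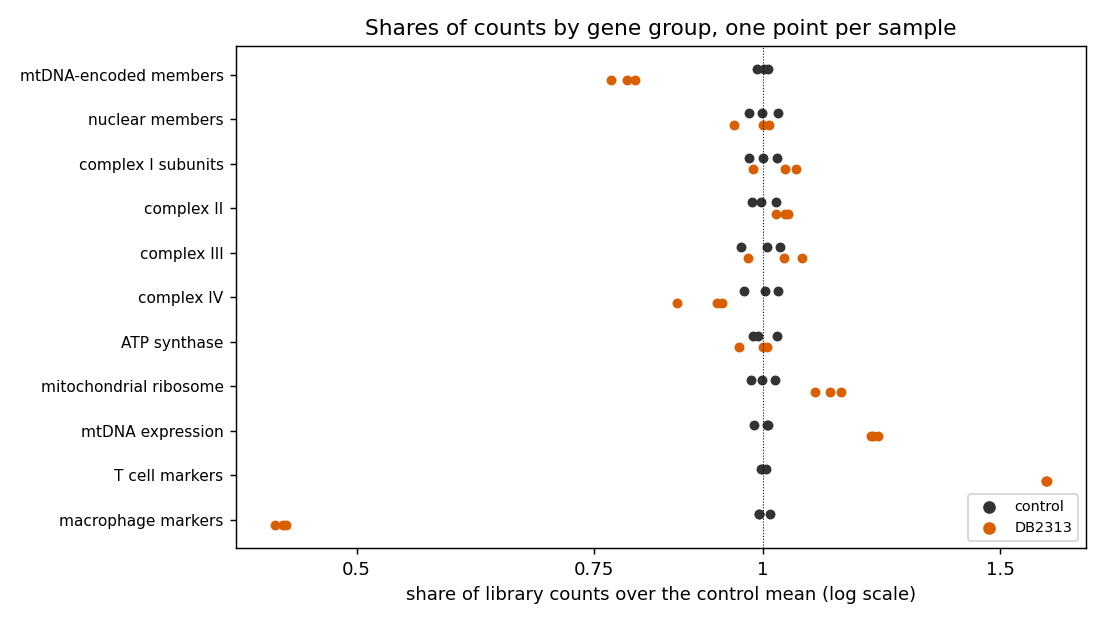
Share of library counts of each gene group divided by its control mean, on a log scale, 1 point per library. The mtDNA-encoded members lie near 0.790 in the DB2313 group and the nuclear members near 0.988, while macrophage markers lie below and T cell markers above all groups of oxidative phosphorylation genes.

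The remaining mitochondrial lists held calls both ways with TMM, and scaled to the T cell markers none held a gene called higher. Their counts stand beside 20.8% called higher and 24.6% lower over all genes tested. Citric acid cycle genes gave 4 higher and 5 lower of 19 (21.1% and 26.3%, near the shares over all genes), with Idh2 at 0.32 and Cs, citrate synthase, at −0.35. Electron carriers and ubiquinone synthesis gave 1 higher and 5 lower of 17, with Coq2 at 0.29 and Gpd2, the mitochondrial glycerol-3-phosphate dehydrogenase, at −0.55. Biogenesis regulators gave 3 higher and 3 lower of 10, among them Nrf1 at 0.21 and Esrra at −0.32. Cristae genes gave 3 higher and 1 lower of 17, from Apool (−0.76) to Phb (0.33), and carriers and import genes 4 higher and 5 lower of 18 (22.2% and 27.8%), from Ucp2 (−0.47) to Hspd1 (0.26). C1qbp, a mitochondrial matrix protein that can also bind C1q, had 1847, 1884 and 1655 counts in the controls and 1899, 1804 and 1890 in the DB2313 group, a log2 fold change of −0.0088 (95% interval −0.097 to 0.080).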

How the data were processed

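All 6 libraries were analysed from 1 table of raw gene counts deposited by the authors. Per the labels' processing notes CASAVA 1.8, HISAT2 2.0.5 and featureCounts 1.5.0-p3 were used, whereas the study's methods name another aligner. Genome build, strand setting and treatment of multiply placed reads were not given in the sources used here. From the counts, genes were filtered by filterByExpr, scaled by TMM and compared by group with edgeR 4.0.16 (two-sided quasi-likelihood test, Benjamini-Hochberg over 14883 genes, adjusted p under 0.05). SE was the log2 fold change over the root of F. The procedure was tested on simulated data. Lengths and the coordinates of copies came from GENCODE M21 (GRCm38), and the table's gene coordinates matched it for 101 of the 107 members. Copies were found with blastn 2.17.0. Alternatives were DESeq2 1.42.0, other scalings and filters, a replicate block, a length trend, and leaving out each library. Genes were named by class extremes, isoform sets and a log2 fold change over 1, and other members to complete each class. The values of 1 named gene are not reported here. The members and lists were chosen with earlier results of these data known. Library totals limit precision through counting error only.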

Additional observations from a re-analysis of the deposited data

How the results depend on the processing

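For 65 named genes, 894 of 961 alternative values kept direction and side of the threshold, 25 lost the call, 14 gained it and 28 changed sign. The scaling to T cell markers, which moved the calls most, is not counted among these values and is given below. With library totals, 21 nuclear members were higher and the medians were 0.030 (nuclear) and −0.57 (mitochondrial). That scaling turned mt-Nd5 (0.022), Sdhc (6.48e-05), Atp5h (0.085), Atp5b (0.080), Ndufaf8 (0.030), Atp5g1 (0.060), Atp5g3 (0.0077) and C1qbp (0.086), none of them called before. Upper quartile scaling gave a mitochondrial median of −0.60 and turned Atp5h (0.055), Atp5b (0.049), Ndufaf8 (1.37e-04), Atp5g1 (0.030) and C1qbp (0.055). Library totals, upper quartile and T cell scaling moved the median of all genes by 0.094, 0.064 and −0.60. Scaled to T cell markers, 1 nuclear member was higher and 86 lower, with medians of −0.67 and −1.26. Without a filter the mitochondrial median was −0.71. Asking a log2 fold change over 1 left 2 nuclear members higher, 2 lower and 1 mitochondrial member lower. With the length trend removed, Sdha (−0.0081), Atp5h (0.013) and Cox7a2l (−0.034) changed sign, and the call of Cox7a1 was lost (adjusted p = 0.0541).

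Leaving out 1 library at a time gave 25 to 33 nuclear members lower, 8 to 11 higher and 10 to 11 mitochondrial members lower, with mitochondrial medians of −0.68 to −0.61. Without DB2313 replicate 3, 25 nuclear members were lower. Values spanned zero for Sdha (−0.0078 to 0.023), Sdhb (−0.0056 to 0.10), Atp5h (−0.026 to 0.014), Atp5b (−0.026 to 0.0087), Cox7a2l (−0.011 to 0.030), Ndufaf8 (−0.14 to 0.051), Atp5g1 (−0.15 to 0.063) and C1qbp (−0.028 to 0.028), none of them called with all libraries.

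Same-numbered libraries did not deviate together (correlations 0.014, −0.0039 and 0.019). These values show no pairing by number but cannot exclude a paired design. With the replicate block 29 nuclear members were lower, 9 higher and 10 mitochondrial members lower, with medians of −0.065 and −0.66, and Cox6a1 lost its call (adjusted p = 0.0679). Low counts limit Cox4i2, Cox6a2, Cox7a1, mt-Nd4l and mt-Atp8. Shared sequence limits the copied mitochondrial genes and may limit mt-Atp8, for which only annotated copies were searched.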
